A study of Mus musculus with 6 samples.

Results

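The genes described here encode enzymes that make or interconvert amino acids: asparagine synthetase (Asns), the transsulfuration enzymes that make cysteine (Cbs and Cth), the proline synthesis enzymes (Aldh18a1 and Pycr1), the aspartate, alanine and branched-chain aminotransferases (Got1, Got2, Gpt2 and Bcat1) and glutamine synthetase (Glul). They were selected by gene symbol, as probe sets whose platform annotation gives exactly 1 symbol equal to 1 of these 10 names. On the array 18193 genes had a probe set with exactly 1 symbol, 9 of the 10 listed genes among them. These 9 were represented by 24 probe sets. Pycr1 had none and its transcript was not analysed here. The list was drawn up with the Et1-against-control results of these same arrays in view, so the Et1 and control values of its members are given as a description, with no p-value, and support no claim about the list.

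Messenger RNA was measured on 6 Affymetrix Mouse430_2 arrays. The Et1 cultures were primary dermal fibroblasts that received 100 nM synthetic endothelin 1 (Et1), a small secreted peptide that contracts blood vessels and signals through G-protein-coupled receptors, for 24 hours (3 arrays, Et1 replicates 1 to 3). The control cultures were grown alike without the peptide (3 arrays, control replicates 1 to 3). All were B6 cells of mixed sex grown out of skin explants of newborn pups, aged 0 to 2 days in the sample labels and up to 3 days in the design text. They were harvested at passage 6 in the labels, from cultures divided by passage 5 in the design text. All grew in DMEM with L-glutamine, high glucose, 10% serum and penicillin with streptomycin. Per the labels the replicates are biological, but the animals are not named, so the spread between these cultures may in part be technical. The SDs below measure that spread. The SEs come from limma, which draws the variance of each probe set toward a trend over all tested probe sets.

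Signals below are deposited signals scaled to a common 2% trimmed mean, on a linear scale. Log2 fold changes are the mean log2 signal in Et1 minus that in control cultures. A fold is this difference put back on the linear scale, so it can differ from the ratio of the linear means. Deposited trimmed means ran from 91.7 to 179 before scaling. Of 9 dermal fibroblast markers, 8 had a brightest probe set above the filter on dim signals (a mean signal of 41.0). The summed signal of all 9 was 14701 to 26557 on Et1 arrays and 20592 to 34699 on control arrays. Vim, the brightest, had a log2 fold change of 0.02, and the others lay below 0 in their brightest probe sets. Pdgfrb stood at -1.14, with every Et1 signal below every control signal. Col3a1, Thy1 and Col1a1 stood at -1.26, -1.18 and -0.93 with overlapping groups. Pdgfra, Col1a2, Lum and Dcn lay at -0.50 to -0.26, also with overlap. The 5 keratinocyte markers summed to 319.8 to 399 on Et1 arrays and 295 to 399.7 on control arrays. Macrophage and leukocyte markers, 5 with a probe set, summed to 287 to 355 on Et1 arrays and 241 to 359 on control arrays. Sums of endothelial (84.1 to 182.5 against 77.2 to 109.9), melanocyte (186 to 233 against 153 to 204) and adipocyte markers (18.8 to 26.6 against 10.4 to 23.5) overlapped. The only Schwann cell marker with a probe set, S100b, read 37.0 to 51.7 on Et1 arrays and 54.75 to 95.8 on control arrays in its brighter probe set. The 3 smooth muscle markers summed to 815 to 1171 on Et1 arrays and to 1840 to 2493 on control arrays. Most of this sum was Cnn1 (means 929 in Et1 and 2064 in control cultures). Myh11 was dimmer and also lower in Et1 cultures (56.3 against 94.6), while Des overlapped (55.2 against 55.8). The part of these markers in the results below was not tested. In such bulk RNA, fewer cells of a kind and less RNA per cell cannot be told apart. The arrays also split by the signal of their bacterial poly(A) control probe sets. Et1 replicates 1 and 3 and control replicate 3 formed a high set (mean log2 signal 4.75 to 5.64), and Et1 replicate 2 and control replicates 1 and 2 a low set (3.45 to 3.57).

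As background, the aminotransferases among these enzymes move amino groups reversibly between glutamate and another carbon skeleton, while Asns and Glul spend ATP to build an amide. Transcription of several of them, Asns above all, is known to be raised by the transcription factor ATF4 when amino acids are short or unfolded proteins accumulate, through C/EBP-ATF response elements in their promoters. Dermal fibroblasts draw on glycine and proline in large amounts to make collagen.

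A limma fit over all 22519 tested probe sets called 78 of them at an adjusted p of 0.05 (0.346%). Of the 24 probe sets of the list, 21 passed the filter and 0 of these 21 were called by limma. At an unadjusted p under 0.05, limma placed 9 of the 21 higher and 0 lower in Et1 cultures, where 5.94% of all tested probe sets were higher and 6.38% lower. The log2 fold change was above 0 for 17 and below 0 for 4 of the 21, and above 0 for 19 of all 24. Of all tested probe sets, 54.1% were above 0. The median log2 fold change was 0.35 over the 21 and 0.43 over the 24, beside 0.03 over all tested probe sets. In 9 of the 21 every Et1 signal lay above every control signal, as in 9.47% of all tested probe sets, and in 0 below, as in 8.11%. These 9 were all the probe sets of Asns, Cth, Got1 and Gpt2 that were tested, plus 1 of Bcat1. Because the list was chosen on this contrast, nothing is read from these counts. Several probe sets measure the same transcript (5 for Aldh18a1, 4 for Gpt2), so they are not separate observations.

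**Figure D1:**
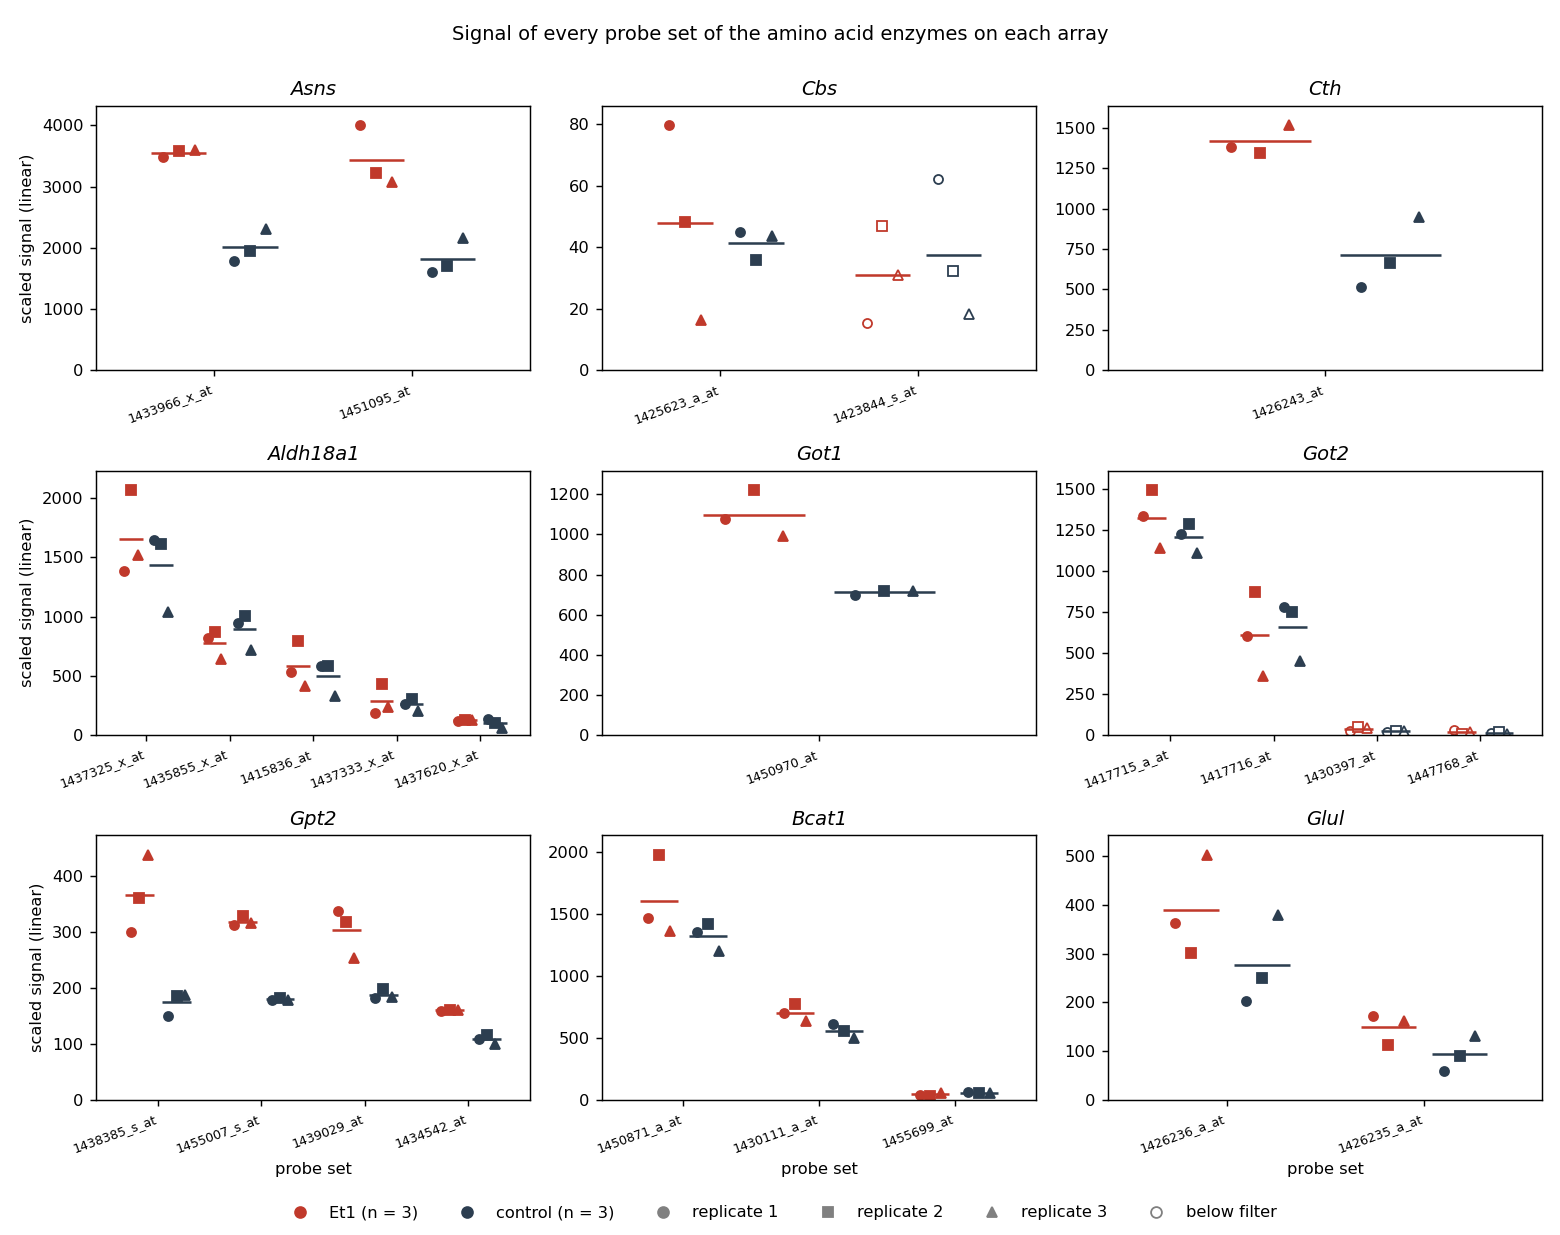
Scaled signal (linear) of every probe set of the 9 genes on each array, with Et1 arrays in red to the left and control arrays in dark blue to the right. Bars are group means (n = 3 each) and open symbols are the 3 probe sets below the filter. For Asns, Cth, Got1 and Gpt2 the groups do not overlap in any probe set, while those of Cbs, Aldh18a1, Got2 and Glul overlap in every one.

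Asns makes asparagine from aspartate and glutamine. Its probe set 1433966_x_at had signals of 3478, 3579 and 3595 on the Et1 arrays, against 1779.9, 1943 and 2303 on the control arrays. The 3 Et1 cultures were close together and all above the controls, of which replicate 3 was the highest. Means were 3551 ± 63.5 in Et1 and 2008 ± 268 in control cultures (SD, n = 3 each), a fold of 1.78 (log2 fold change 0.83, SE 0.13). The other probe set, 1451095_at, read 4002, 3221 and 3071 on Et1 arrays and 1604, 1705 and 2164 on control arrays, again without overlap (log2 fold change 0.91, SE 0.16). Names ending in _x_at mark probes that may also bind other transcripts, and whether 1433966_x_at did so was not tested. Over the 6 arrays the log2 signals of both probe sets had a Pearson r of 0.96, as a description. Within the low and the high spike-in set the log2 differences of 1433966_x_at were 0.94 and 0.62, and those of 1451095_at 0.96 and 0.70.

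The promoter of Asns is shown because it is a textbook case of an ATF4-responsive promoter, beside those of Got1 and Gpt2, whose signals were also higher without overlap. Windows run from 250 bases before to 50 bases after the RefSeq transcription start (build GRCm38.p6), 5′ to 3′ on the strand of the gene, and capitals mark matches to TGATGNAAN on either strand.
Asns, chr6:7693160-7693459, minus strand: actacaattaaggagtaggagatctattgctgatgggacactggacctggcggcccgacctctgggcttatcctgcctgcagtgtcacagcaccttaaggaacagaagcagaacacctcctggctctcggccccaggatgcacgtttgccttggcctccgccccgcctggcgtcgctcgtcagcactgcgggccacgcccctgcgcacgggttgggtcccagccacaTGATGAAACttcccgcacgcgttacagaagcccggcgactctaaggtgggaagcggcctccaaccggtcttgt
Got1, chr19:43524556-43524855, minus strand: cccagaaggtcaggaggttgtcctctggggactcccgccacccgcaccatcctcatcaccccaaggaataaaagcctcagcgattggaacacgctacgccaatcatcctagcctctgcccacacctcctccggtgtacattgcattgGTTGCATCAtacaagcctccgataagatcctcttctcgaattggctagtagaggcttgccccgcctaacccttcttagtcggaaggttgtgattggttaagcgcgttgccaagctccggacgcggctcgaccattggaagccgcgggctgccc
Gpt2, chr8:85492326-85492625, plus strand: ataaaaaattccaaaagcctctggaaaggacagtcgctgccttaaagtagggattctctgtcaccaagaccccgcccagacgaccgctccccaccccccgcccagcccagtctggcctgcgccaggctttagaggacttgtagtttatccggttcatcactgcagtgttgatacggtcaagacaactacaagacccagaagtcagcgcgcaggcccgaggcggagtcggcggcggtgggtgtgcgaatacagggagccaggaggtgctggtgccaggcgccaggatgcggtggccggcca
The Asns match, TGATGAAAC, starts 23 bases before the start site. The Got1 match reads GTTGCATCA on the strand shown, which is TGATGCAAC on the other, and starts 103 bases before it. Pycr1, whose transcript was not analysed here, has TGATGCAAT, also starting 103 bases before its start site. The string was found in 3 of the 10 windows of the 9 listed genes that have one, and in 3.95% of all 32851 windows of the same length. No match was found in the windows of Gpt2, Cbs, Aldh18a1, Got2, Bcat1 and Glul. A match says only that these letters are present.

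Cth, cystathionine gamma-lyase, releases cysteine from cystathionine in the final step of transsulfuration. Its only probe set here, 1426243_at, had signals of 1385, 1348 and 1516 on the Et1 arrays, against 518, 663 and 952 on the control arrays. All Et1 signals were above all control signals, and control replicate 3 stood 1.61 times as high as the mean of the other control arrays. Means were 1416 ± 88.7 in Et1 and 711 ± 221 in control cultures (SD, n = 3 each), a fold of 2.05 (log2 fold change 1.04, SE 0.22). The log2 difference was 1.20 within the low and 0.61 within the high spike-in set, so it was smaller where control replicate 3 was the comparator.

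Cbs, cystathionine beta-synthase, carries out the step before Cth and was near or below the filter. Its probe set 1425623_a_at read 79.6, 48.2 and 16.2 on Et1 arrays and 45.0, 35.7 and 43.6 on control arrays. The Et1 signals spread on both sides of the controls, and the log2 fold change was -0.06 with an SE of 0.56, although the linear mean was 48.0 in Et1 and 41.4 in control cultures. Its other probe set, 1423844_s_at, was below the filter, at 15.4 to 46.9 on Et1 arrays and 18.2 to 62.1 on control arrays. No difference in Cbs was detectable at these signals.

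Gpt2 is the mitochondrial alanine aminotransferase, which makes alanine and 2-oxoglutarate from pyruvate and glutamate. All of its 4 probe sets had Et1 signals above every control signal. The brightest, 1438385_s_at, read 299.7, 362 and 438 on Et1 arrays, against 151, 185 and 187 on control arrays (log2 fold change 1.06, SE 0.19, a fold of 2.09). In 1455007_s_at the replicates were tighter, with 313, 328 and 316 on Et1 arrays and 179, 183 and 179 on control arrays. Means of that probe set were 319 ± 8.08 in Et1 and 180.1 ± 2.49 in control cultures (SD, n = 3 each; log2 fold change 0.83, SE 0.14). The remaining ones, 1439029_at and 1434542_at, differed by 0.68 and 0.57 on the log2 scale (SE 0.17 and 0.16). Across the 4 probe sets the log2 signals of any pair had a Pearson r of 0.80 to 0.98 over the 6 arrays. The log2 differences within the low spike-in set were 0.52 to 1.11 and within the high set 0.67 to 0.95, so Gpt2 was close to the pooled value in both.

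Got1 and Got2 are the cytosolic and mitochondrial aspartate aminotransferases, the pair that carries the malate-aspartate shuttle. Got1 (1450970_at) had signals of 1079, 1221 and 993.5 on Et1 arrays, against 699, 718 and 718 on control arrays. All Et1 signals were higher and the controls were nearly equal, with means of 1098 ± 115 in Et1 and 712 ± 11.0 in control cultures (SD, n = 3 each; log2 fold change 0.62, SE 0.14, a fold of 1.54). For Got2 the groups overlapped. Its brightest probe set, 1417715_a_at, read 1337, 1493.5 and 1139 on Et1 arrays and 1226, 1286 and 1109.7 on control arrays (log2 fold change 0.13, SE 0.15). A dimmer one, 1417716_at, had a log2 fold change of -0.16 (SE 0.33). The other 2 Got2 probe sets lay below the filter, with group means of 10.6 to 37.4. The difference between Got1 and Got2 itself was not tested.

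Aldh18a1 encodes pyrroline-5-carboxylate synthase, which turns glutamate into the precursor of proline and ornithine. Its brightest probe set, 1437325_x_at, had signals of 1383, 2067 and 1521 on Et1 arrays and 1643, 1615 and 1041 on control arrays. Et1 replicate 2 was the highest and control replicate 3 the lowest, and the remaining arrays overlapped. The log2 fold changes of its 5 probe sets ran from -0.20 to 0.35, with SEs of 0.19 to 0.30, and the groups overlapped in each. Of the 5, 4 carry the _x_at ending. The 1 that does not, 1415836_at, read 535, 794 and 411 on Et1 arrays and 579.9, 582 and 326 on control arrays (log2 fold change 0.22, SE 0.30).

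Bcat1, the cytosolic aminotransferase of leucine, isoleucine and valine, had smaller differences. Probe set 1430111_a_at read 698, 775 and 634 on Et1 arrays, against 613, 559 and 499.7 on control arrays, and did not overlap (log2 fold change 0.33, SE 0.15). The brighter 1450871_a_at, at 1465, 1977 and 1366 on Et1 arrays and 1356, 1418 and 1199 on control arrays, overlapped (0.26, SE 0.17). The dim 1455699_at went the other way, with means of 44.1 ± 14.4 in Et1 and 59.1 ± 6.20 in control cultures (SD, n = 3 each; log2 fold change -0.47, SE 0.32). Its log2 signal over the 6 arrays had a Pearson r of -0.88 and -0.74 with the other Bcat1 probe sets. The probe sets of Bcat1 therefore disagreed in sign.

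Glul makes glutamine from glutamate and ammonia. Probe set 1426236_a_at had signals of 364, 301 and 503 on Et1 arrays and 203, 251 and 379.8 on control arrays (log2 fold change 0.50, SE 0.27). The dimmer 1426235_a_at read 172, 113 and 163 on Et1 arrays and 59.0, 89.9 and 131 on control arrays (log2 fold change 0.73, SE 0.31). The groups overlapped in both. Control replicate 3 was 1.67 and 1.76 times as high as the mean of the other controls and exceeded Et1 replicate 2 in each, while the other controls lay below every Et1 array.

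**Figure D2:**
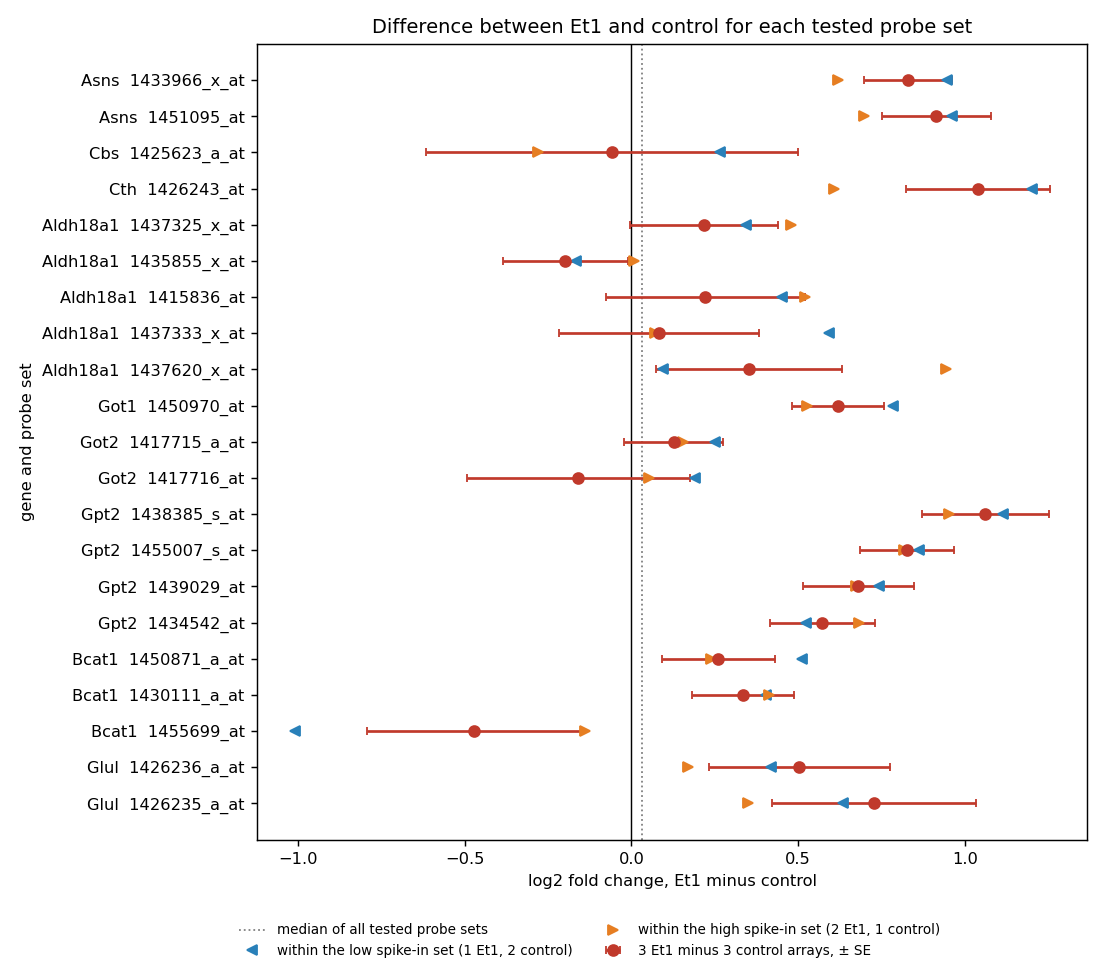
Log2 fold change (Et1 minus control) of the 21 tested probe sets with the limma standard error (red), beside the difference within the low (blue) and high (orange) spike-in set; the dotted line is the median of all tested probe sets, 0.03. Asns, Cth, Got1 and Gpt2 lie between 0.57 and 1.06 and stay above 0.5 within both sets.

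The spike-in sets separated several of these genes, a contrast that did not enter the choice of the list. In a limma fit with group and set, 6 of the 21 tested probe sets passed the adjusted threshold between the high and the low set, 2 higher and 4 lower in the high set, where 16.7% of all tested probe sets passed (6.71% higher and 9.99% lower). Glul was higher in the high set in both probe sets, by 0.63 and 0.71 on the log2 scale (SE 0.16 and 0.21, limma adjusted p = 0.0249 and 0.0430). Its 1426236_a_at read 364, 503 and 379.8 on the high-set arrays and 301, 203 and 251 on the low-set arrays, without overlap. Lower in the high set were Aldh18a1 in 3 of its 5 probe sets, among them 1415836_at (-0.80, SE 0.12, limma adjusted p = 0.00268), and Got2 in 1417716_at (-0.84, SE 0.18, limma adjusted p = 0.0108). The 1415836_at probe set of Aldh18a1 read 535, 411 and 326 on the high-set arrays and 794, 579.9 and 582 on the low-set arrays. Each set holds only 3 arrays, and the labels say nothing of how the sets arose, so this difference cannot be told apart from one between the cultures in them. Asns, Got1 and Gpt2 had set differences of -0.11 to 0.26, and that of Cth was 0.40, none of them past the threshold.

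Blocking on the spike-in set, limma called 7 of the 21 probe sets, all higher in Et1 cultures, where 1.39% of all tested probe sets were called higher, 2.47% lower and 3.85% in either direction. They were those of Asns (log2 fold changes 0.78 and 0.83), Cth (0.90), Got1 (0.66) and, of Gpt2, 1438385_s_at, 1455007_s_at and 1439029_at (1.03, 0.84 and 0.71). The same reserve about the choice of the list applies to them.

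Other enzymes of the same pathways, 54 genes listed by function, were examined beside these. That list too was drawn up with earlier results of these data known, so its counts and p-values are a description. Probe sets were found for 50 of them, 67 of whose 85 probe sets were tested. None was called by limma over all probe sets (smallest adjusted p = 0.144, for Asl); at an unadjusted p under 0.05, 9 were higher and 5 lower, in a table where 5.94% were higher and 6.38% lower. The median log2 fold change of the 67 was 0.06, with 37 above 0 and 30 below, where 54.1% of all tested probe sets were above 0. The medians by pathway were 0.21 for 16 probe sets of sulphur amino acid enzymes, 0.07 for 19 of branched-chain breakdown, -0.01 for 10 of proline and ornithine metabolism, -0.05 for 9 around asparagine and aspartate and -0.07 for 13 around glutamate, glutamine and alanine.

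Among these, Psat1, the aminotransferase of serine synthesis, read 3288, 2681 and 3012 on Et1 arrays, against 1634, 1730 and 2479 on control arrays in its brighter probe set. These signals did not overlap, and control replicate 3 was again the highest control (log2 fold change 0.64, limma adjusted p = 0.201). Asl, which splits argininosuccinate into arginine and fumarate, had 195 ± 6.83 in Et1 and 127 ± 9.12 in control cultures (SD, n = 3 each; log2 fold change 0.63). In methionine and homocysteine metabolism the log2 fold changes were 0.53 for Mtr, 0.43 for Mtrr and 0.40 for Ahcy, with Et1 signals above all controls in each (limma adjusted p = 0.308 to 0.358). A dimmer Mtr probe set, 1458532_at, overlapped (log2 fold change 0.21). Cdo1, which oxidises cysteine, was dim, at 26.1 ± 5.84 in Et1 and 64.3 ± 20.3 in control cultures (SD, n = 3 each). Its log2 fold change was -1.28 (limma adjusted p = 0.217). All Et1 signals of Cdo1 lay below the filter level, so it passed the filter only through its control arrays. The size of its log2 fold change therefore rests on signals too dim to pass by themselves. For proline, Aldh4a1, which breaks it down, had a log2 fold change of -0.51 and Pycrl, a reductase of the Pycr family, one of 0.26. P4ha1, a subunit of the prolyl hydroxylase of collagen, stood at -0.85 and Oat, ornithine aminotransferase, at -0.28. The groups of Pycrl, P4ha1 and Oat overlapped. Of the branched-chain enzymes, Mccc1 stood at 0.49, Dld at 0.46 and Bckdha at 1.18 on a dim probe set. Bcat2, the mitochondrial partner of Bcat1, stood at -0.91. The groups of Dld, Bckdha and Bcat2 overlapped. All control signals of Bckdha lay below the filter level, so it passed only through its Et1 arrays, and the same reserve applies to its size. Gfpt1, which uses glutamine to make hexosamines, stood at -0.52, Glud1, glutamate dehydrogenase, at -0.30, and Nit2 at 0.52. Around aspartate, Nadsyn1 stood at 0.39, Cad at -0.40 and Ass1 at -0.15. The groups of Glud1 (brightest probe set), Nit2, Cad and Ass1 overlapped. None of the other enzymes passed the threshold.

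**Figure D3:**
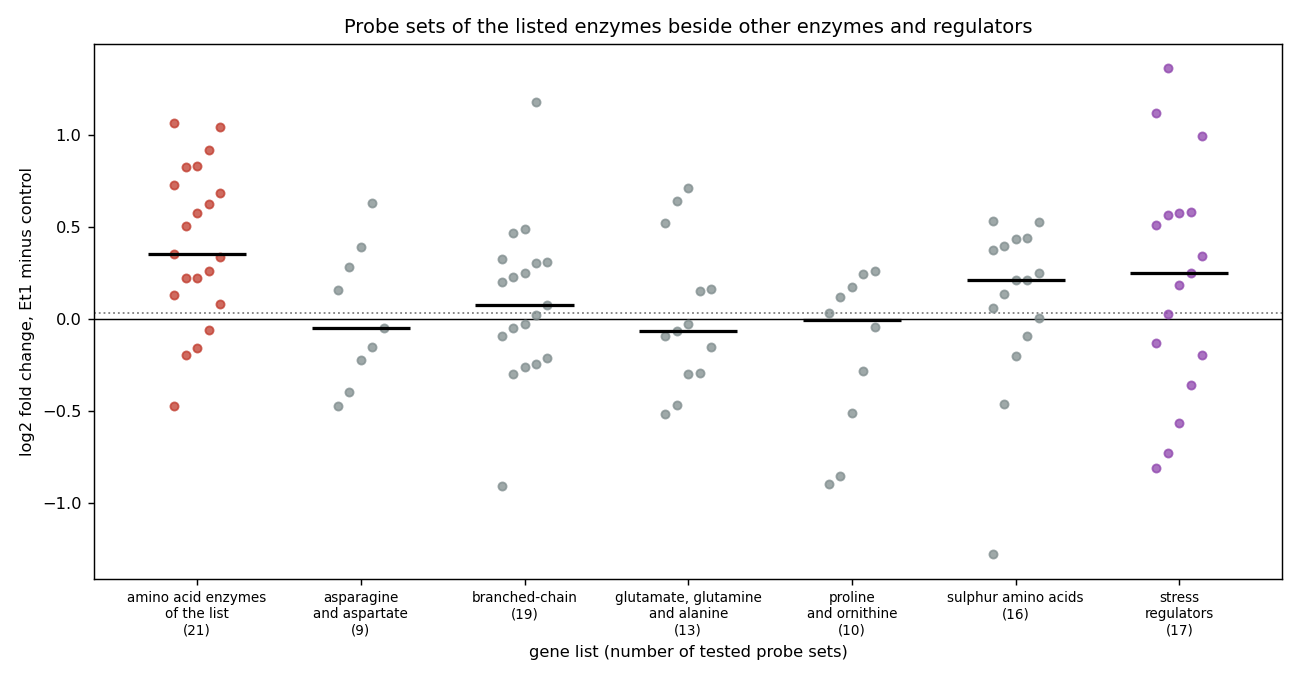
Log2 fold change (Et1 minus control) of each tested probe set, by gene list, with the number of probe sets under each name; thick bars are medians and the dotted line is the median of all tested probe sets. The listed enzymes, chosen with these values known, have a median of 0.35, the other enzymes medians of -0.07 to 0.21 and the regulators one of 0.25. The other lists were also drawn up with earlier results of these data known.

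Regulators known to act on such genes were taken from a list of 11, with 17 tested probe sets and a median log2 fold change of 0.25. It was above 0 in 11 and below 0 in 6 of the 17, where 54.1% of all tested probe sets were above 0. This list was also drawn up with earlier results of these data known, so its counts and p-values are a description. Limma called 1 of the 17, a probe set of Trib3, a pseudokinase induced by ATF4, where 0.0977% of all tested probe sets were called higher. This probe set read 651 ± 106 in Et1 and 252 ± 16.5 in control cultures (SD, n = 3 each, log2 fold change 1.36, limma adjusted p = 0.0304). The other Trib3 probe set, 1456225_x_at, did not overlap either but was not called (log2 fold change 1.12, limma adjusted p = 0.155). Atf4 (1448135_at) read 3331, 3582 and 2902 on Et1 arrays, against 2459, 2124 and 2303 on control arrays, without overlap (log2 fold change 0.51, limma adjusted p = 0.161). Its other tested probe set, 1438992_x_at, read 2344, 1482 and 2737 on Et1 arrays and 1051, 1309 and 2152 on control arrays, with overlap (log2 fold change 0.56). Ddit3, the stress factor CHOP, read 560.5, 623 and 697 on Et1 arrays and 285, 293 and 372 on control arrays (log2 fold change 0.99, limma adjusted p = 0.0609). A dim Ddit3 probe set, 1443897_at, had a log2 fold change of -0.36 (SE 1.04) with overlapping groups. Myc stood at 0.57 (limma adjusted p = 0.162). Others lay below 0, 2 of which are named here after their values were seen. Eif2ak3, the kinase PERK that acts upstream of ATF4, read 93.5, 85.3 and 123 on Et1 arrays (1449278_at), against 170.1, 171 and 154 on control arrays, every Et1 signal below every control signal (log2 fold change -0.73, limma adjusted p = 0.163). Cebpb, a C/EBP transcription factor, had log2 fold changes of -0.57 and -0.81 in its tested probe sets, with overlapping groups.

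The genes whose log2 signals over the 6 arrays were most like those of the brightest Asns probe set were G0s2, Wars, Mrm1, Nop14 and Ero1a, with Pearson r of 0.998, 0.997, 0.996, 0.995 and 0.995. With 6 arrays and 22519 probe sets such values are a description only, and so are the Et1 and control values of genes chosen for likeness to Asns. Wars, the cytosolic tryptophanyl-tRNA synthetase, read 985, 925 and 997 on Et1 arrays and 372, 417 and 535 on control arrays (log2 fold change 1.15). The other 4 had log2 fold changes of 0.17 to 0.69.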

How the data were processed

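The authors' deposited intensity signals, 1 linear value per probe set and array, come from MAS5 according to the submitters' processing notes, which give no version or target level here. Total RNA was biotin-labelled by the standard Affymetrix transcription method, per the labels. The 6 deposited experiment files held the same settings apart from the sample type entry, and no measurements. That entry numbers both control and Et1 arrays by replicate, but does not say that same-numbered cultures share cells.

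Signals were scaled array by array to a shared 2% trimmed mean of 139. Any 0 (4 values) was replaced by its array's smallest positive value before log2, without a pseudocount. Of 45101 probe sets, 64 Affymetrix controls were dropped. The filter kept the 22519 whose mean scaled signal reached the median, 41.0. Intensity signals carry no molecule count, so precision comes from the 3 arrays per group and the spread between them. In the limma SEs it also comes from the variance trend over all tested probe sets. Group and replicate were read from the sample titles. Arrays were put in a high or low spike-in set by their average log2 level over Bacillus poly(A) controls, divided where neighbouring arrays lay farthest apart. Limma 3.58.1 in R 4.3.3 (lmFit, eBayes with an intensity trend, no block) was fitted over all tested probe sets with Benjamini-Hochberg adjustment at 0.05, and was tested on simulated data.

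The members and the other gene lists were chosen with earlier results of these data known. Of the other enzymes and the regulators, those with the smallest unadjusted p were named, at most 4 per pathway group, each by its brightest tested probe set. For likeness, the 5 genes with the highest Pearson r to the brightest Asns probe set were taken, clone names skipped. Promoter windows were RefSeq's (GRCm38.p6), matched by symbol for 9 of the 10 genes. Gene names are those of the platform annotation, used where a probe set had exactly 1 symbol. The alternatives were quantile normalization or median centring as the scaling, filters at 0 and at the 75th percentile, 50 added before log2, no intensity trend, blocks for the replicate number or the spike-in set, and leaving out each array.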

Additional observations from a re-analysis of the deposited data

How the results depend on the processing

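The count of the 21 listed probe sets called, 0, became 2 with quantile normalization (Asns), 1 with 50 added before log2 (Asns), 7 when blocked on the spike-in set and 6 with the replicate block (Asns, Cth, Got1 and Gpt2), all higher in Et1 cultures. With a filter at the 75th percentile 16 of the 21 were tested and 3 called higher (Asns and Gpt2). Over all probe sets tested, limma called 0.12% higher with quantile normalization, 0.115% with 50 added, 1.39% with the spike-in block, 0.755% with the replicate block and 0.32% with the 75th percentile filter. These shares are given beside the counts of listed probe sets. Because the list was chosen on this contrast, nothing is read from those counts under any setting. Leaving out each array gave 0 to 3, the 3 (Asns and Cth) without control replicate 3, where 0.382% of all were called higher. The count for the other enzymes, 0 of 67, became 6 when blocked on the spike-in set (Psat1, Asl and Gclc higher, P4ha1 and Gfpt1 lower) and 1 (P4ha1, lower) with the replicate block, and 0 to 2 with an array left out, the 2 (Psat1) without control replicate 3. Over all tested probe sets the count of 78 became 43 with centring on the median, 40 with no filter, 7 with no intensity trend, 567 (2.52%) with the replicate block and 868 when blocked on the spike-in set, and 4 to 229 with an array left out. Same-numbered arrays had correlations of their deviations from the group means of -0.12, 0.44 and 0.45 for numbers 1, 2 and 3. Et1 replicate 1 was closest to control replicate 3 (0.26). Every positive correlation between an Et1 and a control array joined arrays of the same spike-in set. The check therefore cannot tell whether same-numbered cultures are paired. No pairing was assumed, because nothing says that same-numbered cultures share cells. Of 331 log2 fold changes of the listed probe sets under these settings and within the spike-in sets, 318 kept their sign, and the 13 that did not belonged to Cbs, Aldh18a1 and Got2. Asns ranged from 0.62 to 1.04, Cth from 0.61 to 1.27, Got1 from 0.53 to 0.79 and Gpt2 from 0.41 to 1.20. The 3 arrays per group and signals near background limit what can be seen in Cbs and in the dim probe sets of Got2 and Bcat1.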
